A study of Arabidopsis thaliana with 8 samples.

Results

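Of the regions listed as bound by ENAP1 in Arabidopsis thaliana seedlings, 234 of 3293 in ethylene (7.11%, exact 95% interval 6.25 to 8.04%) and 303 of 4526 in air (6.70%, 5.98 to 7.46%) lay away from protein-coding genes. They were chosen by the position of the summit, the base of highest signal in a region. The summit had to lie outside every protein-coding gene and either inside a gene of another type (the noncoding regions) or more than 1000 bp from any protein-coding gene (the intergenic regions). The ethylene list had 123 noncoding and 111 intergenic regions, and the air list had 163 and 140. The label holds for the positions, with 1 limit. Of the noncoding summits, 84 of 123 in ethylene (68.3%) and 109 of 163 in air (66.9%) were still within 1000 bp of a protein-coding gene.

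Chromatin immunoprecipitation and sequencing (ChIP-seq) used an antibody against green fluorescent protein, and input DNA was sequenced without antibody. There were 4 groups of 2 samples, namely ethylene ChIP, ethylene input, air ChIP and air input, 8 in all. The ethylene groups were exposed for 4 h to 10 ppm ethylene in hydrocarbon-free air, and the air groups for 4 h to hydrocarbon-free air alone. All were whole seedlings of ecotype Col-0, grown for 3 days in darkness at 24 °C, and all carried ein3 eil1. EIN3 and EIL1, lost in that double mutant, are transcription factors that carry the ethylene signal to most of its target genes, and no group had them. The promoter and construct of the tagged ENAP1 are not given in the sources used here, and the labels leave it unsaid if replicates were separate batches of seedlings. The authors' lists are joint, 1 per treatment, with no value per sample. No difference between ethylene and air could therefore be tested, and absence from a list does not show that a place was unbound.

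ENAP1 (EIN2 NUCLEAR ASSOCIATED PROTEIN) binds the nuclear fragment of the ethylene signal transducer EIN2 and binds histones. Plant intergenic space holds distal promoter elements, genes for long noncoding RNAs (lncRNAs), and small-RNA genes such as those for microRNAs, transfer RNAs and small nucleolar RNAs. Most plant pseudogenes, many of them derived from transposable elements, lie in condensed chromatin near centromeres, where histones are little acetylated.

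Noncoding genes differed widely among themselves in how often they held a summit. Per Mb of sequence outside protein-coding genes, genes annotated as ncRNA held 108 summits in ethylene (68.4 to 162, exact Poisson 95% interval) and 136 in air (91.2 to 195.5). Genes annotated as lncRNA held 78.8 summits per Mb in ethylene (61.4 to 99.5) and 86.6 in air (68.4 to 108). The protein-coding genes themselves held 39.6 per Mb in ethylene (38.1 to 41.2) and 53.2 in air (51.4 to 55.0), so ncRNA genes lay above them in both lists with intervals that did not overlap. Intervals here cover counting error only, and the regions of a list are not replicates.

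Genes annotated as misc_RNA, a category for transcripts of no settled type, held 32.8 summits per Mb in ethylene (17.9 to 55.0) and 53.9 in air (34.1 to 80.8). Transcribed pseudogenes held 13.3 in ethylene (7.29 to 22.4) and 19.99 in air (12.4 to 30.6). Pseudogenes with no recorded transcript were the low end, with 3 summits in 9.34 Mb in ethylene, or 0.321 per Mb (0.0662 to 0.939), and 11 in air, or 1.18 per Mb (0.588 to 2.11). Between ncRNA genes and pseudogenes with no recorded transcript the density thus differed by a factor of over 100 in both lists. All bases were counted in these lengths, and how well reads can be placed in repeated sequence was not assessed.

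**Figure D1:**
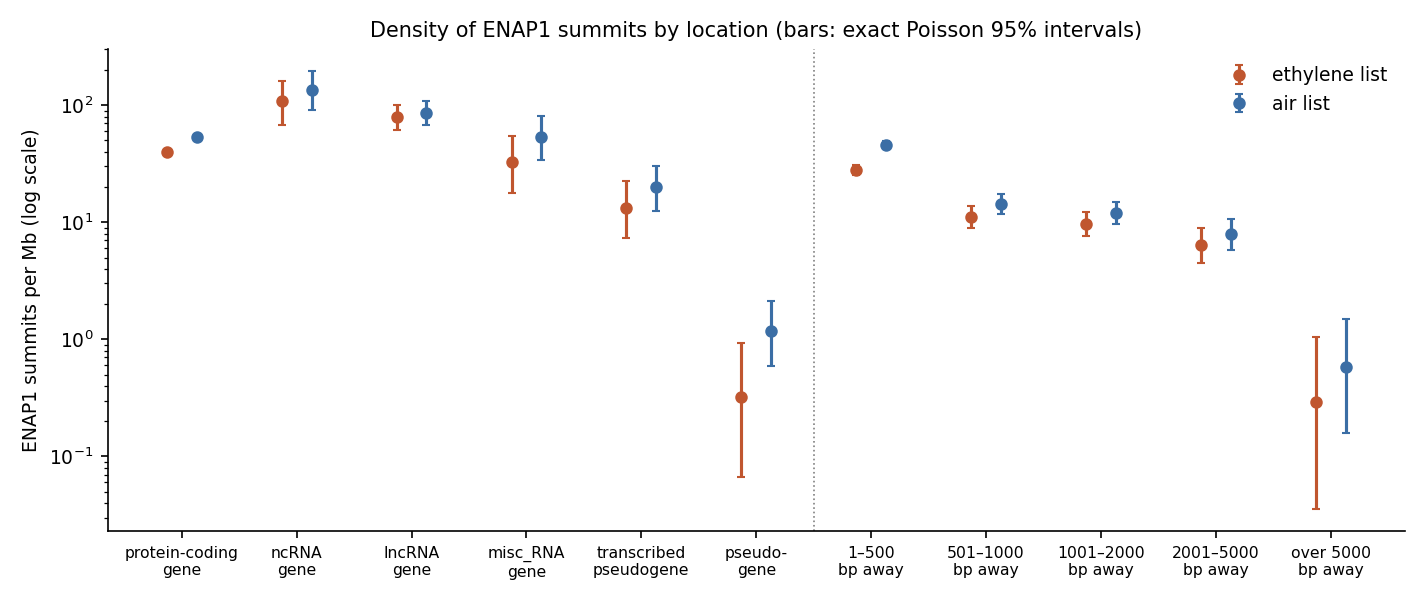
Summits per Mb (log axis) by location, ethylene left of air, with exact Poisson 95% intervals; the dotted line separates genes from bands of distance outside any gene. Density was highest in ncRNA genes (108 in ethylene, 136 in air). It was lowest in pseudogenes with no recorded transcript (0.321 and 1.18) and beyond 5000 bp (0.291 and 0.581).

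The closeness of many noncoding genes to protein-coding genes moves with this order, so bases at the same distance from a protein-coding gene were set side by side, a comparison added after the values had been seen. At 201 to 500 bp, lncRNA, ncRNA and misc_RNA genes together held 118 summits per Mb in ethylene (80.0 to 167) and 122 in air (83.1 to 171.5), and bases in no gene held 13.2 in ethylene (10.8 to 16.1) and 18.5 in air (15.6 to 21.8). At 501 to 1000 bp these RNA genes held 70.4 in ethylene (46.4 to 102) and 88.6 in air (61.4 to 124), and bases in no gene 11.1 in ethylene and 14.4 in air. At 1 to 200 bp the RNA genes held 123 in ethylene (74.0 to 192) and 188 in air (126 to 270). Bases in no gene there held 42.9 in ethylene (38.4 to 47.9) and 72.7 in air (66.8 to 79.1). That was a smaller ratio than at 201 to 500 bp. The intervals did not overlap at any of these distances.

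The same held farther out. At 1001 to 5000 bp the RNA genes held 46.8 summits per Mb in ethylene (30.9 to 68.2) and 55.5 in air (38.0 to 78.4), and bases in no gene 8.27 in ethylene (6.79 to 9.97) and 10.3 in air (8.65 to 12.2). Pseudogenes of either type at that distance held 2.45 in ethylene (1.12 to 4.66) and 3.81 in air (2.09 to 6.40), below the bases in no gene in both lists at that distance. Beyond 5000 bp the RNA genes held 2 summits in each list, or 17.1 per Mb (2.07 to 61.9), above the bases in no gene (0.291 in ethylene, 0.0352 to 1.05, and 0.581 in air, 0.158 to 1.49). For pseudogenes the intervals overlapped those of bases in no gene at the other distances. At 201 to 500 bp pseudogenes held 15.3 in ethylene and 20.4 in air, and beyond 5000 bp 0.17 in ethylene and 1.02 in air.

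Counted by gene, 125 of the 9181 noncoding genes with bases outside protein-coding genes held a summit there in ethylene, a share of 1.36%, and 165 did in air, or 1.8%. A protein-coding gene held a summit in 9.28% of 27444 cases in ethylene and 12.2% in air. Those 125 and 165 genes had 103 in common, which is 82.4% of the ethylene genes and 62.4% of the air genes.

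Among ncRNA genes the share was close to that of protein-coding genes, with 20 of 212 in ethylene (9.43%, 5.86 to 14.2%) and 25 of 212 in air (11.8%, 7.78 to 16.9%), 19 of them in both. Of 2553 lncRNA genes, 75 held a summit in ethylene (2.94%) and 85 in air (3.33%), with 58 in both. The share per gene was lower for lncRNAs although their density per Mb was high. Their median length was 333 bp, against 786.5 bp for ncRNA genes. Of 508 misc_RNA genes 13 held a summit in ethylene and 22 in air, with 11 in both.

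Of 3894 pseudogenes with no recorded transcript, 4 held a summit in ethylene (0.103%) and 12 in air (0.308%), and all 4 were among the 12. Of 915 transcribed pseudogenes, 13 held one in ethylene (1.42%) and 17 in air (1.86%), with 11 in both. Annotated genes can overlap, so a summit can count for more than 1 gene.

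Few summits lay inside the short genes for transfer, micro, small nucleolar and small nuclear RNAs. No summit of the ethylene list lay inside a transfer RNA gene (0 of 576, which allows a share of up to 0.521%), a microRNA gene (0 of 254, up to 1.18%), a small nucleolar RNA gene (0 of 207, up to 1.45%) or a small nuclear RNA gene (0 of 54, up to 5.56%). The air list had 1 summit in each of these 4 types. These genes are short, with a median of 73 bp for transfer RNAs, and their density could not be told from that of protein-coding genes: the upper limit for transfer RNA genes in ethylene was 69.1 summits per Mb (3 counts).

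The 4 air summits in such genes lay in MIR5651 (fold enrichment 4.94, rank 2424 of the list), in the spliceosomal U2.7 gene (4.90, rank 2455), in the small nucleolar RNA gene AT4G06010 (4.86, rank 2506) and in the transfer RNA gene AT4G08345 (2.09, rank 4520). Fold enrichment is the authors' value per region, the ChIP pile-up divided by its local background where the summit lies, and ranks run from the highest value of a list. None of the 4 regions overlapped a region of the ethylene list. The U2.7 gene is 831 bp long, above the median of 153 bp for small nuclear RNA genes. The summit at AT4G08345 also lay in the pseudogene AT4G08340, where the local background was 16.9 times the lowest of the air list.

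Among noncoding and intergenic regions within 1000 bp of a microRNA gene, that of highest enrichment was at MIR403, whose product targets the Argonaute gene AGO2. It was intergenic, 68 bp from the gene at the ethylene summit (chr2:19414866-19415117, TAIR10; fold enrichment 4.17, rank 389) and 36 bp from it at the air summit (chr2:19414870-19415082; 5.67, rank 1631). At MIR166a, from the family that targets HD-ZIP III transcription factor genes, a region lay 192 bp away in ethylene (chr2:19175804-19176094; 2.90, rank 1549), and none was listed there in air. MIR403 was thus in both lists and MIR166a in the ethylene list alone. Of the 28 microRNA genes listed for auxin, NAC and flowering control, 0 held or neighboured a noncoding or intergenic summit within 1000 bp in either list. Of the 24 listed for nutrients and stress, MIR403 was the 1 that did. Over all 326 microRNA genes it was 3 in ethylene (0.92%) and 2 in air (0.614%). With summits of every class, including those in or near protein-coding genes, it was 19 in ethylene (5.83%) and 28 in air (8.59%). Counted so, 2 of the 28 listed genes had a summit in ethylene and 1 in air, and 5 and 6 of the 24. Of the 7 matched trans-acting small interfering RNA loci, 0 had a summit of any class within 1000 bp. No symbol of the lists of named regulatory lncRNAs (17) and phosphate mimicry RNAs (5) matched a noncoding gene of the table, so these were not analysed here.

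Inside longer noncoding genes the share of summits near the gene ends was above the share of all gene bases there. In genes over 1000 bp, 14 of 41 ethylene summits (34.1%, 20.1 to 50.6%) and 20 of 59 air summits (33.9%, 22.1 to 47.4%) lay within 100 bp of an end, where 9.68% of the bases of those genes lay in ethylene and 8.76% in air. Protein-coding genes over 1000 bp had 35.9% of their ethylene summits and 40.2% of their air summits in that stretch, for 8.04% and 8.21% of bases. In noncoding genes up to 1000 bp the share was 35.4% in ethylene and 34.6% in air, below the 43.9% and 43.5% of bases so placed. Of the summits in noncoding genes over 1000 bp, 19 of 41 in ethylene (46.3%) and 25 of 59 in air (42.4%) lay in genes overlapping a protein-coding gene. The base share counts the overlapped bases too, where by the rule no noncoding summit could lie. The excess near the ends was not tested on the bases open to such summits. The gene table used gives no strand, so a start and an end of transcription cannot be told apart.

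Outside all genes the density fell with distance from protein-coding genes. It was 28.0 summits per Mb in ethylene and 45.5 in air at 1 to 500 bp, 11.1 and 14.4 at 501 to 1000 bp, 9.69 (7.58 to 12.2) and 12.1 (9.74 to 14.9) at 1001 to 2000 bp, and 6.43 (4.53 to 8.86) and 7.99 (5.85 to 10.7) at 2001 to 5000 bp. Beyond 5000 bp it was 0.291 in ethylene (0.0352 to 1.05) and 0.581 in air (0.158 to 1.49), from 2 and 4 summits in 6.89 Mb. The decline from 501 bp to 5000 bp was shallow, with intervals of neighbouring bands that overlapped, and the drop beyond 5000 bp was over 10-fold. How well reads can be placed at those distances was not assessed.

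The median intergenic summit lay 1570 bp from the nearest protein-coding gene in ethylene (quartiles 1262 and 2338 bp) and 1594 bp in air (1218 and 2290 bp). Up to 2000 bp lay 72 of 111 in ethylene (64.9%) and 90 of 140 in air (64.3%). Of the 6334 gaps of over 2000 bp between protein-coding genes, 106 held an intergenic summit in ethylene (1.67%) and 133 in air (2.1%), and 74 did in both lists. Of the gaps of over 10000 bp, 2.84% held one in ethylene (1.74 to 4.35%) and 2.56% in air (1.52 to 4.01%), beside 2.33% (1.75 to 3.05%) and 3.23% (2.54 to 4.05%) of the gaps of 4001 to 10000 bp. These intervals overlapped in both lists, but the gaps differ in size. Per Mb of their intergenic bases, gaps of over 10000 bp held 2.02 summits in ethylene and 1.92 in air. Gaps of 4001 to 10000 bp held 7.8 and 10.9 per Mb, and gaps of 2001 to 4000 bp held 13.4 and 16.5.

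The limit of 1000 bp divides neighbours of like values. Just inside it in ethylene were the regions at GSH1 (1006 bp from the gene, fold enrichment 3.20), AT2G15830 (1051 bp, 3.72) and GA2OX6 (1052 bp, 3.35), and just outside were those at BRH1 (952 bp, 3.78), AT1G03220 (976 bp, 2.43) and AT4G19390 (996 bp, 2.97). In air, AT5G12340 (1012 bp, 3.98), GSH1 (1015 bp, 6.40) and AT1G15757 (1016 bp, 5.66) were inside, and AT1G62770 (953 bp, 4.86), AT1G14340 (955 bp, 5.84) and LRX3 (997 bp, 4.82) outside.

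Fold enrichment of the regions away from coding genes was not low. Its median was 3.08 in ethylene (quartiles 2.68 and 3.84, range 1.80 to 7.34), beside 2.82 for the rest of that list, and 5.47 in air (4.53 and 6.74, range 1.67 to 16.4), beside 5.04 for the rest. Above the median of their whole list were 151 of 234 in ethylene (64.5%) and 192 of 303 in air (63.4%). Regions in no gene up to 1000 bp from a coding gene had a median fold enrichment of 2.96 in ethylene and 5.14 in air. Median local background was lower than in the rest of each list, 19.97 beside 28.45 in ethylene and 6.22 beside 8.17 in air. Median pile-up was lower as well, 74.2 beside 89.3 in ethylene and 40 beside 49 in air. Median −log10 p was 16.2 beside 15.5 in ethylene and 17.8 beside 19.2 in air. The level of the 2 lists is not comparable region by region, since each was computed against its own inputs.

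Noncoding and intergenic regions differed more in their background than in their enrichment. Median fold enrichment was 3.05 for noncoding and 3.12 for intergenic regions in ethylene, and 5.28 and 5.55 in air. The median local background, solved from the deposited fold enrichment and p-value and given in pile-up units, was 26.9 for noncoding and 15.2 for intergenic regions in ethylene, near the lowest of the list, 14.2. In air it was 7.66 and 4.79, with a lowest of 3.94. The median −log10 p, which depends on both quantities, was 18.1 for noncoding and 13.5 for intergenic regions in ethylene, and 19.6 and 16.7 in air, and intergenic regions were narrower, with a median width of 208 bp beside 259 bp in ethylene and 192 bp beside 245 bp in air.

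**Figure D2:**
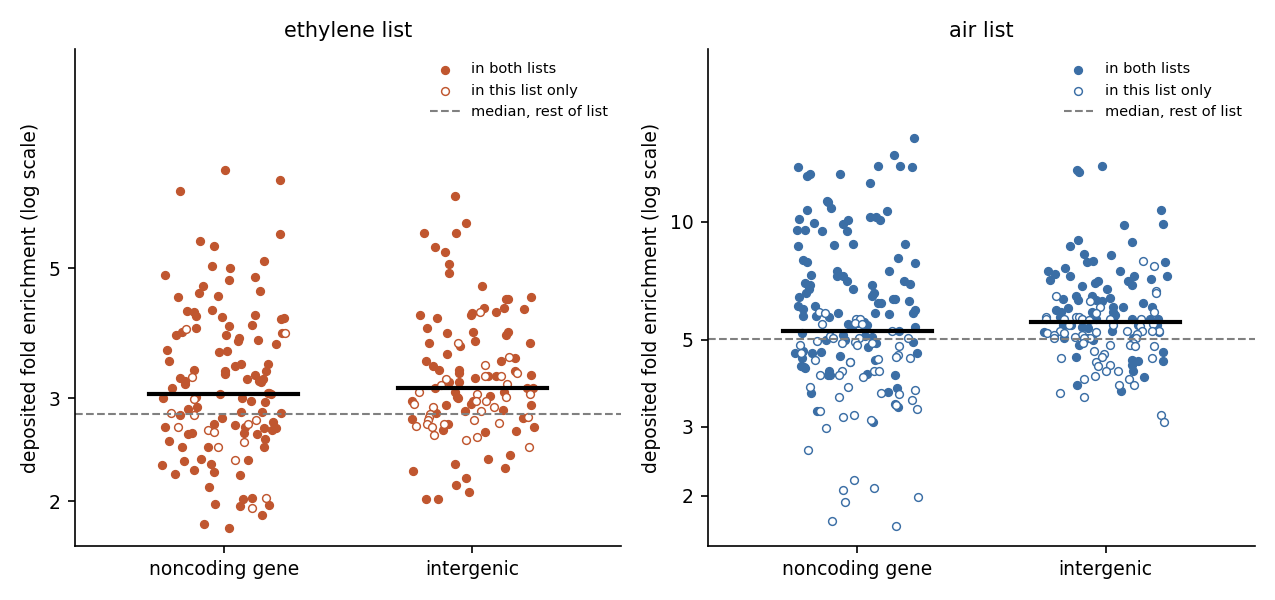
Deposited fold enrichment (log axis) of each noncoding and intergenic region, the ethylene list on the left and the air list on the right; filled points overlap a region of the other list, black lines are class medians (3.05 and 3.12 in ethylene, 5.28 and 5.55 in air) and dashed lines the median of the rest of the list (2.82 and 5.04). Both class medians lie above the dashed line in both panels, and open points reach less high than filled ones.

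The noncoding region of highest enrichment in ethylene was in the misc_RNA gene AT5G00390, 315 bp from NAC083, a NAC transcription factor gene (chr5:4195833-4196101; fold enrichment 7.34, rank 13). In air the same place had 13.8 and rank 71. The lncRNA gene AT1G51645 beside EXO70G2, an exocyst subunit gene, had 7.06 in ethylene (chr1:19149325-19149675, rank 17) and 10.8 in air (rank 201). The ncRNA gene AT2G18735 had 6.76 in ethylene (chr2:8122450-8123015, rank 27) and 13.1 in air (rank 90). These 3 regions ranked near the top of the ethylene list, among all regions and not only the noncoding ones.

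The next noncoding region of the ethylene list lay in AT4G02945, a misc_RNA gene near the transporter gene ABCG42 (5.71 in ethylene, 7.98 in air). The one after it lay in AT2G05290, a pseudogene with no recorded transcript (5.56 in ethylene, 13.9 in air). They were followed by AT2G05075, a lncRNA gene near CAS1, which encodes the sterol enzyme cycloartenol synthase (5.45 in ethylene, 8.11 in air), by AT5G09425, a lncRNA gene 54 bp from the auxin repressor gene IAA9 at the ethylene summit (5.14 in ethylene, 7.29 in air), and by the overlapping lncRNA genes AT2G09060 and AT2G09065 near the expansin gene EXPA4 (5.04 in ethylene, 10.2 in air). All 8 were in both lists. AT2G05290, at rank 99 in ethylene and 66 in air, ranked above the other pseudogenes with no recorded transcript in both lists.

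The air list had another order. Its leading noncoding region was in the lncRNA gene AT1G09357, 75 bp from AT1G72950 (chr1:27444013-27444549; fold enrichment 16.4, rank 25), and its −log10 p of 161 was the highest of all 4526 regions. In ethylene the same summit had 4.24 and rank 360. AT3G24927, a transcribed pseudogene, had 4.53 in ethylene and 14.8 in air. AT5G54569, a lncRNA gene near the beta-glucosidase gene BGLU41, had 4.23 in ethylene and 13.9 in air. AT3G54366, an ncRNA gene near SAC3C, had 3.95 in ethylene and 13.8 in air. AT1G71828, a lncRNA gene 159 bp from the receptor kinase gene SERK1 at the ethylene summit, had 2.68 in ethylene (rank 1963) and 13.3 in air (rank 85). The first 4 ranked from 270 to 490 in ethylene, so they were in its upper part, and AT1G71828 was not.

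The gene for EIN2 itself had a noncoding region. Its summit lay in the ncRNA gene AT5G03285, 254 bp from EIN2 in ethylene (chr5:793377-793820; fold enrichment 3.01, rank 1372) and 250 bp from it in air (chr5:793280-794006; 12.6, rank 107), with the summits 4 bp apart. The local background there was 4.07 times the lowest of the ethylene list and 3.04 times the lowest of the air list. It was among the 10 highest noncoding regions of the air list. EIN2 was named because it is the partner of ENAP1, and further genes below the leading 8 of a class were named after their values were seen.

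Of the noncoding genes with a summit in both lists, 4 more are given here, chosen after their values were seen. AT2G42425, an ncRNA gene about 1 kb from LBD16, a transcription factor gene of lateral root initiation, had 4.46 in ethylene (rank 290) and 10.3 in air (rank 247). AT1G34418, whose summit lay 1732 bp from the auxin response factor gene ARF21 in ethylene, had 4.78 in ethylene and 9.90 in air. AT1G69252, with a summit 1471 bp in ethylene from AFP1, whose product binds the abscisic acid factor ABI5, had 4.11 in ethylene and 7.48 in air. AT4G39404, 183 bp in ethylene and 177 bp in air from PLS, which encodes the POLARIS peptide of root growth and ethylene response, had 3.05 in ethylene and 5.09 in air. Ranks thus ran from 207 at ARF21 to 1300 at PLS in ethylene.

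Among intergenic regions, that at AT4G30150 led the ethylene list at 1095 bp from the gene (chr4:14751027-14751244; fold enrichment 6.63, rank 30) and had 13.4 in air (rank 78). The region at RGA1, a DELLA repressor of gibberellin signalling, had 5.98 in ethylene (chr2:258872-259227, rank 63) and 13.3 in air (chr2:258854-259309, rank 86). Its ethylene summit lay 5 bp outside the lncRNA gene AT2G04015 and its air summit inside it, so that 1 place counted as intergenic in ethylene and as noncoding in air. Of the 77 shared intergenic regions of the ethylene list, it was the 1 whose air partner was noncoding.

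The region at AT3G26539, 5316 bp from the gene in ethylene, had 5.73 in ethylene (rank 84) and 13.6 in air (rank 76), and that at AT3G45210 had 5.73 in ethylene and 9.80 in air. RTFL17, of the family of ROTUNDIFOLIA-like growth peptides, had 5.43 in ethylene and 7.95 in air. HA2, a plasma membrane proton pump gene, had 5.32 in ethylene at 3841 bp (rank 119) and 5.88 in air (rank 1474). LATE, a zinc-finger gene, had 5.07 in ethylene and 7.06 in air. CLV3, which encodes the peptide that restricts shoot stem cells, had 4.91 in ethylene (rank 177) and 5.88 in air (rank 1474). HA2 and CLV3 were thus far higher in the order of the ethylene list than in that of the air list.

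The opposite order occurred at SCL13, a GRAS factor gene, with 3.51 in ethylene (rank 776) and 13.9 in air (rank 63, 1262 bp), the highest intergenic value in air. It also occurred at U1-70K, which encodes a protein of the U1 spliceosomal particle, with 2.08 in ethylene (rank 2970) and 10.7 in air (rank 208), and at the aquaporin gene PIP2B, with 2.97 in ethylene (rank 1439) and 9.91 in air (rank 301). At MYB112, a MYB factor gene, the values were 3.12 in ethylene and 8.99 in air. AR791, with 4.43 in ethylene (rank 303) and 8.91 in air (rank 424), ranked alike. The U1-70K region was the widest apart of these in order. None of these orders carries a test, since a list holds 1 value per region.

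The homeobox gene KNAT3 had 2 intergenic summits in both lists, at 4092 bp (fold enrichment 4.203) and 2865 bp (3.12) in ethylene and at 4079 bp (8.70) and 2852 bp (6.88) in air. The light and temperature signalling gene PIF4 had 4.103 in ethylene (rank 424) and 8.30 in air (rank 516), at 1209 and 1223 bp. The closest pair of summits was at the endoglucanase gene GH9C2, 345 bp apart in ethylene (3.88 and 3.72) and 351 bp apart in air (6.22 and 7.49). Summits within 1000 bp of another summit away from coding genes formed 8 pairs in ethylene and 14 in air, so most such summits were single. The next closest in ethylene were the pairs in AT1G67365 (434 bp) and AT3G00350 (449 bp), and in air those in AT1G05135 (376 bp) and AT2G38260 (397 bp).

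Some noncoding genes held several summits. In both lists 2 were held by AT1G67365, AT2G38980, AT3G00350, AT3G48115 and AT5G24735, of which AT3G48115 and AT5G24735 are ncRNA genes. At AT3G48115 the fold enrichments were 4.15 and 2.02 in ethylene and 9.46 and 3.29 in air, with the summits 460 bp apart in ethylene and 518 bp in air. In 4 of these genes the same summit was the higher in both lists, and at AT1G67365 the order was reversed. At the ncRNA genes AT2G14878 and AT2G31585 the air list had 2 regions where the ethylene list had 1 wide one, so a count of regions and a count of places differ there.

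The summit farthest from a protein-coding gene lay 26798 bp from AT3G42723 in ethylene (fold enrichment 2.63) and was also listed in air at 26847 bp (4.30). In air alone, 1 lay 45875 bp from AT2G12646 (chr2:5215095-5215288; 5.71). The lncRNA gene AT3G05945, 17535 bp from PMAT2 in ethylene, had 4.87 in ethylene (rank 189) and 4.06 in air (rank 3569). The adjoining pseudogenes AT1G35110 and SADHU2-1, the second a retroposon copy, had 2.61 in ethylene and 5.11 in air.

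Most of these regions were found in both lists. A region of the other list overlapped 184 of 234 in ethylene (78.6%, 72.8 to 83.7%), where 80.6% of the whole list was overlapped, and 184 of 303 in air (60.7%, 55.0 to 66.3%), where 58.7% of the whole list was. The share was thus near that of all regions. It was higher for noncoding regions, with 107 of 123 in ethylene (87.0%, 79.7 to 92.4%) and 108 of 163 in air (66.3%, 58.5 to 73.5%), than for intergenic regions, with 77 of 111 in ethylene (69.4%, 59.9 to 77.8%) and 76 of 140 in air (54.3%, 45.7 to 62.7%). The intervals of the classes did not overlap in ethylene and did overlap in air.

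Sharing went with the strength of a region. Split by −log10 p into 4 groups of like size, 59 of the 59 ethylene regions of the highest group were shared (93.9 to 100%), then 89.8% and 75.9%, and 28 of 58 of the lowest (48.3%, 35.0 to 61.8%). In air the 4 groups had 89.5%, 72.4%, 46.1% and 34.7%. The classes were unevenly spread over these groups, with 43 noncoding and 16 intergenic regions in the highest of ethylene and 57 and 19 in that of air. In the upper part of each whole list by −log10 p (the regions above its median), 94.5% of noncoding and 95.8% of intergenic ethylene regions were shared, and below it 76.0% of noncoding and 49.2% of intergenic ones. In air, 89.2% of noncoding and 76.5% of intergenic regions were shared above the median, and 42.5% and 41.6% below it. The gap between the classes was thus wider below the median in ethylene and above it in air. Its intervals there overlapped in both lists. They were 61.8 to 86.9% for noncoding and 36.4 to 62.1% for intergenic regions in ethylene, and 80.4 to 94.9% and 62.5 to 87.2% in air.

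**Figure D3:**
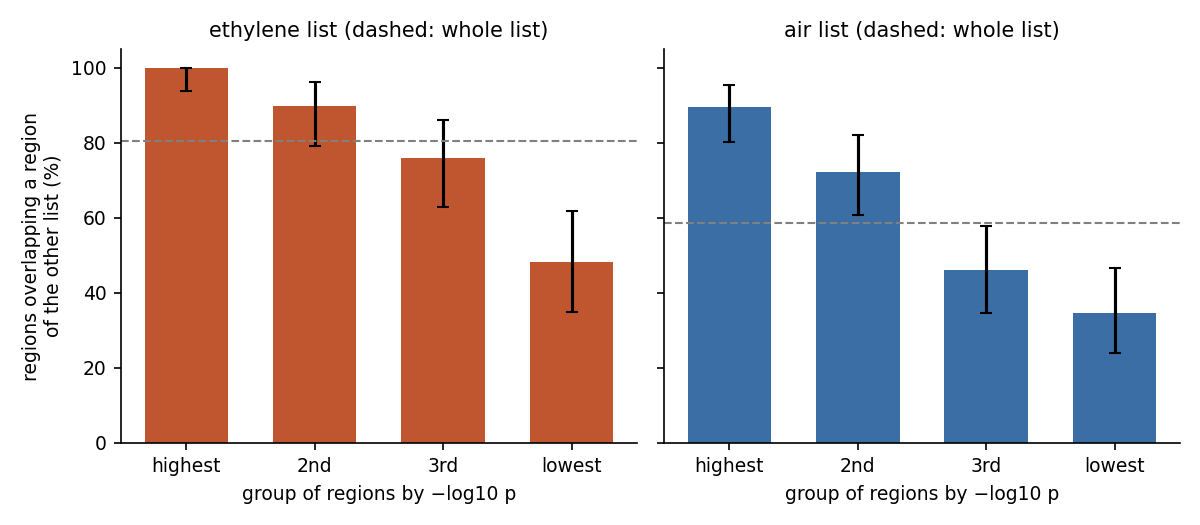
Share of noncoding and intergenic regions (in %) that overlap a region of the other list, in 4 groups by −log10 p from highest to lowest, ethylene on the left and air on the right; bars have exact 95% intervals and dashed lines mark the whole list. The share was 100% in the highest and 48.3% in the lowest group in ethylene, and 89.5% and 34.7% in air.

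At shared places the summits nearly coincided. The median distance between the ethylene and the air summit was 16 bp (quartiles 7 and 27.3 bp), and 175 of 184 (95.1%) were within 50 bp, beside 91.5% in the rest of the ethylene list. The air partner of a shared ethylene region was itself noncoding or intergenic in 179 of 184 cases, lay up to 1000 bp from a coding gene in 4 and inside one in 1. Across the 184 pairs, fold enrichment in ethylene and in air had a Pearson correlation of 0.56 on the log2 scale and a Spearman correlation of 0.55. It was 0.60 (Pearson) over 2471 pairs of the rest of the list. The points share libraries and local background within each list, so this is a description over regions.

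**Figure D4:**
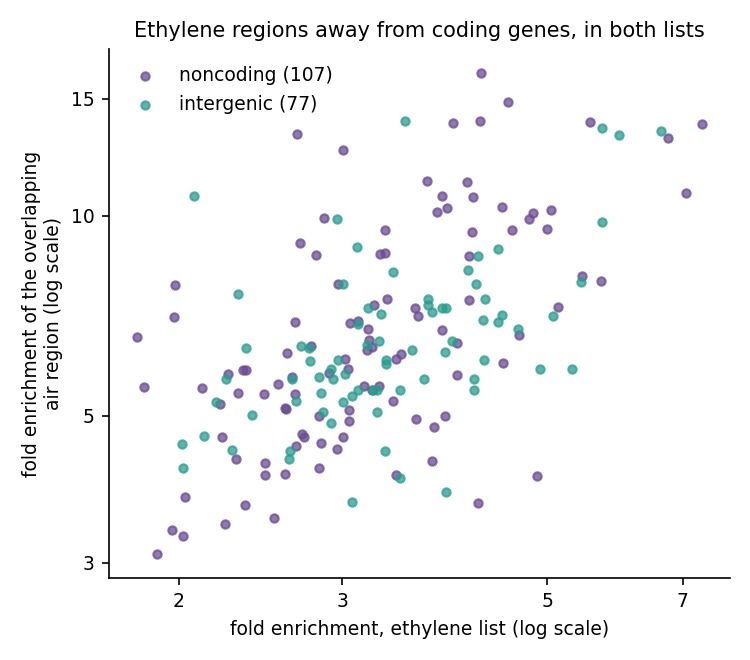
Fold enrichment in ethylene (x axis, log) and of the overlapping air region (y axis, log) for the 184 shared ethylene regions, 107 noncoding and 77 intergenic. Values rise together with a wide scatter (Pearson 0.56 on the log2 scale), and both classes occupy the same range.

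The unshared regions, 50 in ethylene and 119 in air, were of lower enrichment. Their median was 2.83 in ethylene, beside 3.23 for shared ones, and 4.86 in air, beside 6.21. The highest in ethylene were at WAVE5, a gene of actin regulation (intergenic; 4.203, rank 373), in the lncRNA gene AT1G06697 (3.94, rank 495) and in the overlapping lncRNA genes AT1G09563 and AT1G09567 (3.87, rank 545). The highest in air were all intergenic, at the auxin-responsive gene SAUR26 (7.96, rank 590, 2563 bp), at TTL3 (7.72, rank 648) and at AT3G15470 (6.68, rank 1017). No unshared region away from coding genes was thus in the first 300 ranks of either list.

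Further regions, again chosen after their values were seen, were as follows. In ethylene alone, an intergenic region lay 4230 bp from CYP707A3, whose product breaks down abscisic acid (2.79, rank 1751). In air alone, a noncoding region lay in the lncRNA gene AT1G05473, 712 bp from the jasmonate repressor gene JAZ1 (5.50, rank 1793). At ERF4, an ethylene response factor gene, an intergenic region was shared (2.40 in ethylene, 5.01 in air) and a noncoding one in AT3G00330 was listed in air alone (4.83).

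A group of air regions stood on very high local background. At 5 or more times the lowest background of the list were 0 of the 234 ethylene regions (which allows a share of up to 1.28%), beside 3.49% of the whole ethylene list, and 14 of the 303 air regions (4.62%), beside 4.55% of the whole air list. None of the 14 overlapped an ethylene region, beside 41 of 192 (21.4%) such regions in the rest of the air list that did, and 10 of them were in pseudogenes of either type. The highest multiples, 29.6 at the pseudogene AT2G07080 and at the transcribed pseudogene AT3G33002 and 29.5 at the misc_RNA gene AT2G00340, went with fold enrichments of 1.99, 1.67 and 1.93, and the region at AT3G33002 was last of 4526. In ethylene the highest multiples were 4.97 at the lncRNA gene AT5G01475, 4.64 at the transcribed pseudogene AT1G14090 and 4.2 at AT3G48115, and all 3 regions were shared.

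The sharing of pseudogene regions in air moved with this group. Of 21 air regions in transcribed pseudogenes 13 were shared (61.9%), and 13 of 14 (92.9%) without those of high background, as were 13 of 14 in ethylene. Of 11 air regions in pseudogenes with no recorded transcript 4 were shared, and 4 of 8 without those of high background. Without the 14, 184 of 289 air regions were shared (63.7%). Whether the background accounts for these regions was not tested.

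**Figure D5:**
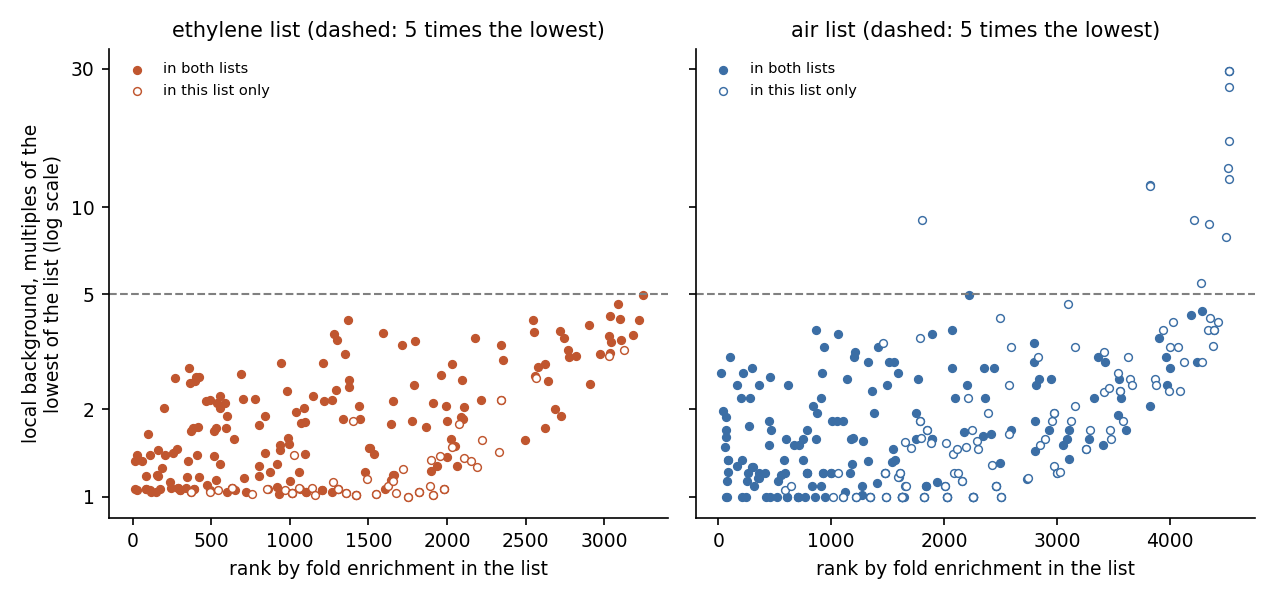
Local background as a multiple of the lowest of the list (y axis, log) against rank by fold enrichment (x axis, 1 is the highest), ethylene left and air right; filled points overlap a region of the other list and the dashed line marks 5 times the lowest. The 14 air points above the line are all open, and the ethylene panel has none above it.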

How the data were processed

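Per the submitters' processing notes, the authors used BWA (version not given) and MACS2 version 2.1.0.20150603, on build TAIR10. Both ChIP samples of a treatment name the same deposited list, labelled optimal by the authors. How that choice was made is not stated. The authors' deposited fold enrichment is a ratio, ChIP over background pile-up where the summit lies, each plus 1. The authors' −log10 p and −log10 q were used as deposited. The deposited score, a rescaled −log10 p, was not used. Library depth is unknown here.

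Summits (counted from 1) were placed on the gene table of RefSeq assembly TAIR10.1, which gives type and ends but no strand or sequence. No region was removed. The class of a region, its distance to genes, and its overlap of at least 1 bp with the other list were computed with Python 3.11.15, numpy 2.4.6 and pandas 2.3.3, intervals (exact binomial and Poisson, 95%) with scipy 1.17.1, and figures with matplotlib 3.10.9. Local background was solved at each summit from the deposited fold enrichment and p-value as a Poisson tail, and the scripts were tested on simulated data. A count of 0 was given the limit of 3 counts.

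Regions were named by rule: the 8 of highest fold enrichment per class and list, and those in short RNA genes or in listed loci. The rule also took the leading shared and unshared ones, those nearest the 1000 bp limit, the farthest, the closest pairs and those of highest background. Others were named after their values were seen. The members and gene lists were chosen with earlier results of these data known. No test between treatments was made.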

Additional observations from a re-analysis of the deposited data

How the results depend on the processing

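Of 129 alternatives to the values above, 94 left the value within its interval or within 1.5 times the count, and 35 moved it (82 and 20 of the 102 on the main comparisons). Some of these outcomes were fixed in advance. The intergenic limit cannot change the noncoding regions, and no ethylene region away from coding genes had a high background to remove. Keeping the upper part of a list must lower its counts. The tally is therefore no measure of how stable the values are. With an intergenic limit of 500 bp there were 196 intergenic regions in ethylene and 250 in air, and with 2000 bp 39 and 50. In the upper part of both lists by −log10 q, 121 regions in ethylene and 134 in air were left, 73 and 83 noncoding and 48 and 51 intergenic. There the median fold enrichment was 3.80 in ethylene and 7.06 in air, 3.76 and 6.97 for noncoding and 3.88 and 7.09 for intergenic regions. With both lists cut before overlaps were called, 79.5% of ethylene noncoding and 67.9% of air regions were shared. Partners in the lower part of the other list were thus not counted. Against the whole other list, 94.5% and 84.3% of those above the median −log10 p were shared. With summits up to 1000 bp outside a noncoding gene, an alternative chosen after seeing the data, 236 genes in ethylene and 345 in air were counted. Transfer RNA genes counted were 4 in ethylene and 11 in air with summits up to 200 bp away, and 2 and 6 by overlap of the region. These wider counts, also those at 1000 bp, took in regions in no gene up to 1000 bp from a coding gene. With noncoding and intergenic summits alone, 2 of 625 transfer RNA genes in ethylene and 1 in air had one within 1000 bp. No paired analysis was possible because the lists are joint over both ChIP samples, and for the same reason no replicate could be left out. The planned sequence features were not run, since no genome sequence was used here.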

Other observations

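The share of the list that lay away from coding genes was highest on chromosome 2, with 56 of 546 in ethylene (10.3%, 7.84 to 13.1%) and 66 of 717 in air (9.21%, 7.19 to 11.6%). On the other chromosomes it ran from 6.14 to 6.91% in ethylene and from 5.62 to 6.65% in air, and the interval of each overlapped that of chromosome 2. Of the 24 of 240 bins of 500000 bp with the fewest protein-coding genes, 2 ethylene regions (0.855%) and 7 air regions (2.31%, 0.934 to 4.70%) away from coding genes lay in one, beside 0.883% and 0.758% of the rest of each list. The intervals overlap in both lists.

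The nearest genes of intergenic summits were also searched for transcription factors of 27 numbered families, chosen after the values were seen. The nearest gene was one for 10 of 111 summits in ethylene (9.01%, 4.41 to 15.9%), at CRF10, ERF4, GATA27, KNAT3, MYB112, MYB73, PIF4, SCL13 and WRKY22. It was one for 16 of 140 in air (11.4%, 6.68 to 17.9%), where ARF3, HB34, MYB108, NAC2, TCP2 and WRKY6 joined the same 9 genes. Such genes were nearest to 4.13% of intergenic bases, and to 5.70% of those up to 5000 bp away, a share inside the ethylene interval. For noncoding regions the share was 5.69% in ethylene and 5.52% in air. The genes were ARF21, BZIP61, CRF2, GATA12, IAA9, LBD16 and NAC083 in both lists and ERF4 and MYB102 in air. That share was near the 5.93% in ethylene and 5.16% in air of regions in no gene up to 1000 bp from a coding gene. No share over the bases of noncoding genes was computed.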
